A study of Mus musculus with 11 samples.

Results

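The genes described here are 4 enzymes of ketone body metabolism, Oxct1, Acat1, Bdh1 and Bdh2, among 55487 genes listed for the series. They were taken by gene name, and each name occurred once in the table. The group was proposed with results of the tumour comparison known, in which Oxct1 differed between hairpins. All values of the members in the tumour comparison are therefore a description, and no p-value is given for them. Values of the hairpin comparison in the sorted libraries did not choose the members and were tested where the counts allowed. The kinds of sample were tested too, but that comparison shares the shNC tumours with the tumour comparison. It is therefore not independent of the choice of members.

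The study used MC38, a mouse colon carcinoma line, whose cells were given a hairpin RNA, either a control one (shNC) or one that targets Fgf21 (shFgf21), and asked what tumour-derived FGF21 does to CD8+ T cells. RNA sequencing counts were given for 11 libraries: T cells sorted from shNC tumours (3) or shFgf21 tumours (2), and shNC tumours (3) or shFgf21 tumours (3), which are labelled as tumour, as MC38 and as mesenchymal cells. The hairpin was in the tumour cells, not in the T cells, and the control libraries are labelled WT although the design names a control hairpin. The sources used here do not give the strain, sex and age of the host mice, the number of hairpins and clones, or whether the numbers joined in the titles of the sorted libraries stand for pooled animals. For shFgf21 sorted replicate 2 the genotype label reads FGF22, and it was placed with shFgf21 by its title. The shNC tumours are numbered 1, 2 and 6 as in their titles. Separate animals or cultures are not named for the replicates, and p-values cover only the spread among libraries, part of which may be technical.

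Ketone bodies are small fuels that the liver makes from fatty acids during fasting. In liver mitochondria, ACAT1 joins acetyl-CoA units at the start of the path to acetoacetate, and BDH1 converts acetoacetate to beta-hydroxybutyrate and back. In tissues that burn them, OXCT1 moves a CoA group from succinyl-CoA onto acetoacetate, which is the committed step of ketone use, and ACAT1 then splits the product into acetyl-CoA. FGF21 is a hormone that the liver releases in fasting and that is known for its ties to fatty acid oxidation and ketone production. BDH2 is a cytosolic relative of BDH1 that is also known for making a mammalian siderophore, an iron-binding small molecule.

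All members are protein-coding genes, placed here by the mm10 coordinates of the table. Oxct1 (ENSMUSG00000022186) lies on chromosome 15 (4026383 to 4155344), Acat1 (ENSMUSG00000032047) on chromosome 9 (53580522 to 53610382), Bdh1 (ENSMUSG00000046598) on chromosome 16 (31422280 to 31458901) and Bdh2 (ENSMUSG00000028167) on chromosome 3 (135281221 to 135304426). Counts are per gene, so transcripts and exons were not separated. Oxct1 is overlapped by BC037032, with 104 counts in all, and by the antisense gene Gm15632, with 2, against 24143 counts of Oxct1. Bdh1 is overlapped by the antisense gene Gm15743, with 11 counts in all against 155 of Bdh1, and the sources used here do not say whether counting used the strand. No listed gene overlaps Acat1 or Bdh2.

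The sequence before the start of Oxct1 is shown because among the members its RNA differed most between hairpins in tumours, and those before both RefSeq starts of Bdh1 because its RNA was nearly missing from tumours. RefSeq (GRCm38.p6) promoter entries were found for 3 of the 4 members, Oxct1, Bdh1 and Bdh2. Each stretch is the 250 bases before the start, 5′ to 3′ on the plus strand, at chr15:4026178-4026427 for Oxct1 and at chr16:31422047-31422296 and chr16:31428503-31428752 for Bdh1. Capitals mark the matches to the motifs searched.
Oxct1: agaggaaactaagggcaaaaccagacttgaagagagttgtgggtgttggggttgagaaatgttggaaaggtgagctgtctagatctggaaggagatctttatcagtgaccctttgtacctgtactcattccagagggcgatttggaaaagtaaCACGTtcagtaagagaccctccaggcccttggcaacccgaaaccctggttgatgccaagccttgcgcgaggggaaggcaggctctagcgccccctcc
Bdh1, start 1: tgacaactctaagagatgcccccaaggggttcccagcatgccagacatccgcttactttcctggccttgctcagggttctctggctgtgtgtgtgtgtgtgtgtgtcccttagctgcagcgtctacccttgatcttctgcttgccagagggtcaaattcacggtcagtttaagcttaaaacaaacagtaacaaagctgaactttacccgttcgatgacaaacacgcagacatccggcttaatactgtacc
Bdh1, start 2: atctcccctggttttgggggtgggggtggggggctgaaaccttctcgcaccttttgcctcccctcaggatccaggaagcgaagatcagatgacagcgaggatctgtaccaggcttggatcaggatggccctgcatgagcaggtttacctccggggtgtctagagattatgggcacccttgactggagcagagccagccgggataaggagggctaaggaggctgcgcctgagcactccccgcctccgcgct
The motifs searched on both strands were the GC box GGGCGG, the CCAAT box CCAAT, the TATA box TATAAA, the E-box CACGTG, the hypoxia response core ACGTG and the nuclear receptor hexamer AGGTCA. The E-box contains the hypoxia core. Among 32851 such stretches in RefSeq, 32.7%, 33.8%, 12.4%, 6.02%, 16.6% and 14.0% held these motifs, in that order. Oxct1 held 1 match, to the hypoxia core on the minus strand, 97 bases before the start. Neither Bdh1 stretch held a match to any of the 6, which says only that these letters are not in these windows. The Bdh2 stretch (chr3:135280971-135281220) held 1 match to the hypoxia core and 1 to the CCAAT box. CpG pairs numbered 6 before Oxct1, 7 and 9 before the Bdh1 starts and 5 before Bdh2, against a median of 6.

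Library totals ran from 14944013 to 19099350 counts, and a gene with 0 counts may still lie at up to 0.157 to 0.201 CPM (CPM being the count scaled to a common library total), counting error only. Fgf21 had 0, 2 and 1 counts in shNC tumours 1, 2 and 6 and 0 in each of the other 8 libraries, so the knockdown could not be checked at this depth. Klb, the FGF21 co-receptor, had 0 to 4 counts per library. The sorted libraries were rich in macrophage RNA: the 10 macrophage and monocyte markers summed to 10749 to 13124 CPM in shNC and 16904 to 18196 CPM in shFgf21, and the 10 T cell markers to 536 to 878 and 580 to 665 CPM. The 6 fibroblast markers summed to 3521 to 4478 CPM in shNC and 3821 to 4195 CPM in shFgf21 sorted libraries, also above the T cell markers. Which cells gave this RNA, and its part in the values of the sorted libraries, was not tested. In tumours the same macrophage markers summed to 7.06 to 22.4 CPM, the T cell markers to 1.33 to 3.25 CPM, and Cd3e, Cd8b1 and Cd2 had no counts. Library shNC sorted 3 was unlike its group in Abl1, a tyrosine kinase gene, with 149 CPM against 42.8 and 42.0 CPM in shNC sorted 1 and 2. The shFgf21 sorted libraries had 166 and 149 CPM. Abl1 was singled out as the gene most correlated with Oxct1 among the genes ranked below, so it is no independent check of the label. The same library was also the highest shNC sorted library in Oxct1, so Oxct1 values without it drop a control by its outcome and are a description. Oxct1 and Bdh1 in sorted cells, Oxct1 between the kinds of sample and the calls of listed genes there are given with and without shNC sorted 3.

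Oxct1 and Acat1 were well expressed in every library, while Bdh2 and Bdh1 were near the detection limit. Between genes, levels are compared per length by the deposited FPKM (counts scaled by gene length and library total). These FPKM imply lengths of 4732 bases for Oxct1, 4261 for Acat1, 8898 for Bdh1 and 4780 for Bdh2. Comparisons between genes rest on these fixed lengths, since the transcripts present were not separated. Oxct1 was at 23.6 ± 6.31 FPKM in shNC sorted, 31.3 ± 8.49 in shFgf21 sorted, 19.2 ± 1.80 in shNC tumours and 41.0 ± 3.10 in shFgf21 tumours (SD, n = 3, 2, 3 and 3). Acat1 was at 14.1 ± 0.280, 13.6 ± 1.72, 17.6 ± 2.23 and 16.7 ± 1.22 FPKM in the same groups. In shNC tumours the levels of these genes did not differ beyond their spread, although each library, there and in the other groups, held more Oxct1 than Acat1 per length. Bdh2 was at 0.137 to 0.342 FPKM over the 11 libraries, so that Acat1 was 42.0 to 108 times and Oxct1 55.8 to 298 times as high within a library. Bdh1 was at 0.0945 to 0.338 FPKM in sorted libraries, within the range of Bdh2 apart from its lowest library, and at 0 to 0.0150 FPKM in tumours. By counts, not scaled by length, Bdh1 was above Bdh2 in each sorted library but shNC sorted 3.

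**Figure D1:**
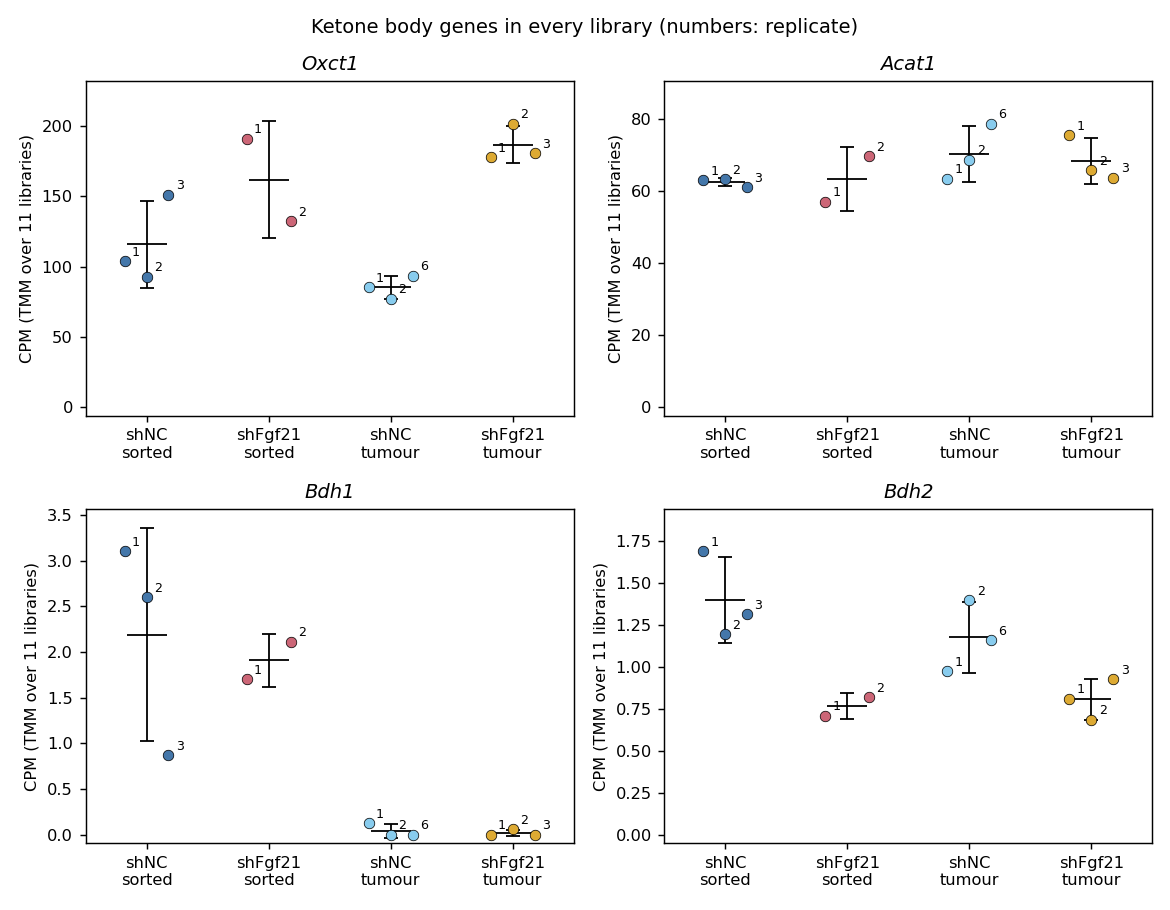
Level of each ketone body gene in CPM (TMM scaling over the 11 libraries, linear axes from 0) in each library of the 4 groups; points are libraries numbered by replicate, and the line and bars are the mean ± SD. Oxct1 in the 3 shFgf21 tumours lies at 178 to 202 CPM, above the shNC tumours at 77.2 to 93.7 CPM, and Bdh1 is close to 0 in all tumours.

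Oxct1, the CoA transferase of ketone use, was higher in every shFgf21 tumour than in any shNC tumour. Levels of 1 gene in CPM here use 1 scaling (TMM) over the 11 libraries. In shNC tumours 1, 2 and 6 Oxct1 was at 85.3, 77.2 and 93.7 CPM. In shFgf21 tumours 1, 2 and 3 it was at 178, 202 and 181 CPM. The groups were far apart, with all 3 knockdown libraries above the control range and close to each other. The fitted log2 fold change was 1.12 ± 0.13 (SE, n = 3 and 3), which is 2.17-fold, and it ranged from 1.06 to 1.21 over the 12 alternatives run. The macrophage markers summed to 9.43 to 22.4 CPM in shNC and 7.06 to 13.0 CPM in shFgf21 tumours, with 2 of 10 higher and 8 lower on average in shFgf21. The fibroblast markers summed to 5817 to 6870 and 4470 to 6108 CPM, with 5 of 6 lower in shFgf21 and 1 higher. None of these markers that was tested was called, and their part in the Oxct1 difference was not tested.

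Acat1, the thiolase that acts after OXCT1 in ketone use, overlapped between the hairpins in tumours. Its levels were 63.5, 68.7 and 78.8 CPM in shNC tumours against 75.6, 65.9 and 63.8 CPM in shFgf21 tumours, and each group had libraries inside the range of the other. Its log2 fold change was -0.048 ± 0.14 (SE). Within a library, the ratio of Oxct1 to Acat1 FPKM was 1.21, 1.01 and 1.07 in shNC tumours. It was 2.12, 2.76 and 2.55 in shFgf21 tumours, so the enzymes' RNAs changed unequally there. A ratio alone does not say which of the genes moved, but by CPM Acat1 overlapped between the hairpins and Oxct1 did not. The ratio in tumours thus restates the Oxct1 difference that was known when the members were chosen. In sorted libraries the ratio was 1.48, 1.32 and 2.22 in shNC and 3.01 and 1.71 in shFgf21, and these ranges overlapped.

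**Figure D2:**
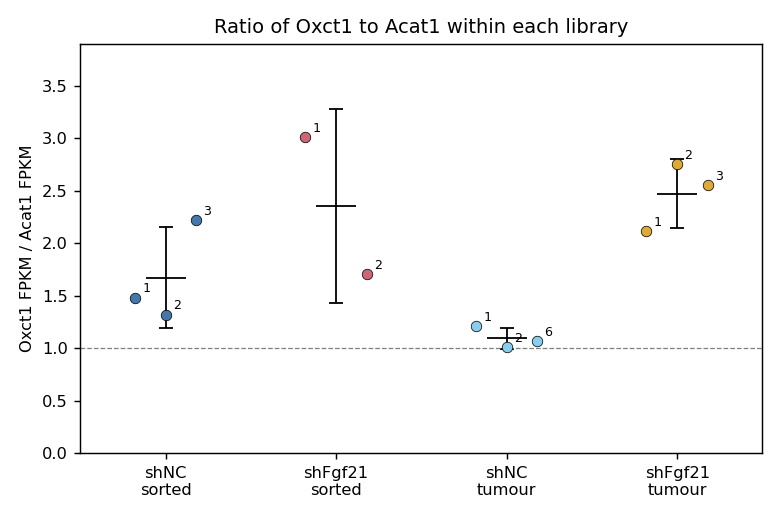
Ratio of Oxct1 FPKM to Acat1 FPKM in each library (linear axis from 0, dashed line at a ratio of 1; points are libraries numbered by replicate, line and bars are the mean ± SD). Tumours separate by hairpin, at 1.01 to 1.21 in shNC and 2.12 to 2.76 in shFgf21, while shNC sorted 3 at 2.22 lies between the shFgf21 sorted libraries at 1.71 and 3.01.

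Bdh2 was lower in shFgf21 tumours at very low counts. It had 15, 29 and 23 counts in shNC tumours 1, 2 and 6 (0.974, 1.40 and 1.16 CPM). It had 14, 11 and 16 counts in shFgf21 tumours (0.810, 0.684 and 0.924 CPM). The groups did not overlap in CPM, but the highest shFgf21 and the lowest shNC library were 0.924 and 0.974 CPM, and the log2 fold change was -0.55 ± 0.35 (SE). Bdh1 had 2, 0 and 0 counts in shNC and 0, 1 and 0 counts in shFgf21 tumours and did not pass the filter on low counts, so no fold change was computed. Of the 4 members, Oxct1 and Bdh2 did not overlap between hairpins in tumours, a share to set beside 11.8% of 14950 tested genes. At an adjusted p under 0.05, 0.0334% of those genes were called. Nothing is read from these counts, since this comparison chose the members.

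The sorted libraries were used to ask whether ketone body genes differ in cells taken from shFgf21 tumours. Oxct1 was at 104, 92.9 and 151 CPM in shNC sorted 1, 2 and 3, against 191 and 132 CPM in shFgf21 sorted 1 and 2. The groups overlapped, because shNC sorted 3 lay above shFgf21 sorted 2. The log2 fold change was 0.46 ± 0.23 (SE, n = 3 and 2) and did not pass (edgeR quasi-likelihood, adjusted p = 0.502), with an interval of 2 SE of 0.0098 to 0.91. Without shNC sorted 3 it was 0.70 (edgeR adjusted p = 0.258). Leaving out shFgf21 sorted 1, the higher of the pair, gave 0.17, and leaving out shFgf21 sorted 2, the library with the FGF22 label, gave 0.71 (edgeR adjusted p = 0.855 and 0.778). Macrophage markers were higher in 9 of 10 cases in shFgf21 sorted libraries. T cell markers were lower in 7 of 10, neutrophil markers in 4 of 5 and NK cell markers in 3 of 4. Epithelial markers were lower in 5 of 5 and endothelial markers in 4 of 4. Fibroblast markers were split at 3 and 3 and B cell markers at 2 and 2. No marker tested was called, and their part in the Oxct1 values was not tested. In such bulk samples, fewer cells of a type and less RNA per cell cannot be told apart.

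Acat1 varied little among the sorted libraries. It was measured at 63.1, 63.3 and 61.2 CPM in shNC libraries and 57.1 and 69.8 CPM in shFgf21, with the control libraries inside the range of the knockdown pair. The log2 fold change was 0.0022 ± 0.12 (SE, edgeR adjusted p = 0.997). Its interval of 2 SE ran from -0.23 to 0.23.

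Bdh1, which interconverts the ketone bodies, had 46, 37 and 14 counts in shNC sorted 1, 2 and 3 (3.10, 2.60 and 0.874 CPM). It had 24 and 31 counts in shFgf21 sorted 1 and 2 (1.70 and 2.12 CPM), which lay inside the control range. The log2 fold change was -0.21 ± 0.51 (SE, edgeR adjusted p = 0.911) with an interval of 2 SE of -1.22 to 0.80, and the sign was not stable. Without shNC sorted 3, the control library low in Bdh1, it was -0.60 (edgeR adjusted p = 0.553), and without shNC sorted 1, the highest, it was 0.13 (edgeR adjusted p = 0.962). Leaving out shNC sorted 2 gave -0.065, and leaving out shFgf21 sorted 1 or 2 gave -0.063 and -0.37. The control library lowest in Bdh1, shNC sorted 3, was also lowest in summed T cell markers, at 536 CPM against 878 and 762 CPM. It was lowest in fibroblast markers too (3521 against 4478 and 3751 CPM). In macrophage markers it was the highest control library (13124 against 10749 and 12182 CPM). The part of any of these cells was not tested.

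Bdh2 was lower in both shFgf21 sorted libraries than in any control library, again at low counts. It had 25, 17 and 21 counts in shNC (1.69, 1.19 and 1.31 CPM) and 10 and 12 counts in shFgf21 (0.709 and 0.819 CPM). The log2 fold change was -0.88 ± 0.39 (SE) and did not pass (edgeR adjusted p = 0.462), with an interval of 2 SE of -1.67 to -0.096. It was -0.98 to -0.73 when each library was left out in turn. Bdh2 was the 1 member of 4 without overlap between the sorted groups, against 29.8% of the 16454 genes tested. None of the 4 members was called by edgeR (0.0790% of genes were) or by DESeq2. None had an unadjusted edgeR p under 0.05, against 1842 of the 16454 genes tested.

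The knockdown effects in sorted cells and tumours differed for Oxct1 by -0.65 ± 0.28 on the log2 scale (sorted minus tumour, SE), moving to -0.94 without shFgf21 sorted 1 and to -0.41 without either shNC sorted 3 or shFgf21 sorted 2. For Acat1 and Bdh2 the differences were 0.062 ± 0.18 and -0.32 ± 0.49. These are descriptions, since the tumour effect is part of them. Over 17327 genes, 0.00577% were called in the test of this difference.

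The kind of sample was compared in the control hairpin alone, shNC sorted against shNC tumours. Sorting, cell content and library handling cannot be told apart in it, and it shares its control libraries with the hairpin comparisons, among them the tumour comparison that chose the members. Bdh1 stood out among the members by its near absence from tumours: 97 counts over the 3 shNC sorted libraries faced 2 over the 3 shNC tumours, a ratio per total count of 54.5 (95% exact interval 14.7 to 456, counting error only). In shFgf21, 55 counts faced 1, a ratio of 85.3 (14.7 to 3431). The shNC groups did not overlap, which also held for Acat1 and for 47.2% of all genes tested. Bdh1 passed the filter on low counts only through the sorted libraries, so that it had to differ, and its counts are a description. It stays among all genes tested, but its test is not used. Leukocyte markers differ between the same groups, as given above, with Cd3e at no counts in tumours, and their part was not tested.

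The other 3 members were tested between the kinds of sample, and none was called, against 31.0% of the 16104 genes tested. Oxct1 was at a log2 difference of 0.44 ± 0.19 (SE, sorted minus tumour, edgeR adjusted p = 0.115), and at 0.21 without shNC sorted 3 (edgeR adjusted p = 0.371). Acat1 was at -0.17 ± 0.12 (adjusted p = 0.317) and Bdh2 at 0.24 ± 0.32 (edgeR adjusted p = 0.604), with intervals of 2 SE of -0.40 to 0.066 and -0.39 to 0.88. Over the 4 groups, the order of mean Oxct1 CPM was shNC tumours (85.4 ± 8.26), shNC sorted (116 ± 30.9), shFgf21 sorted (162 ± 41.6) and shFgf21 tumours (187 ± 13.1; SD). Each group's range overlapped that of the next group in this order.

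Abl1 was the gene most like Oxct1 among the genes ranked. These were 8623 genes with at least 10 CPM on average in each kind of sample. Predicted genes (Gm and Rik names), ribosomal protein genes, mitochondrial ones included, and small RNA genes were left out. Among the rest, log2 CPM of Abl1 had the highest Pearson correlation with Oxct1 over the 11 libraries (0.929, and 0.930 with each kind of sample centred on its mean). The libraries fell into separate clusters, so this value only ranks genes and cannot be tested. In tumours Abl1 was at 43.1, 41.1 and 48.6 CPM in shNC and 154, 134 and 163 CPM in shFgf21. The 5 libraries at low Abl1 (41.1 to 48.6 CPM) had 77.2 to 104 CPM of Oxct1, and the 6 libraries at high Abl1 (134 to 166 CPM), shNC sorted 3 among them, had 132 to 202 CPM. Next were Pdhx (0.851) and Nfkbia (0.844) by level, and Ust (0.920) and Phf19 (0.902) after centring. For Acat1 these were Paip2, Cep89 and Rhbdd2 by level (0.849, 0.829 and 0.818), and Ilk, Slirp and Pccb after centring (0.854, 0.840 and 0.822). For Bdh1, with 0 counts in 4 of 6 tumours, the values by level follow the kind of sample: Aim2, Tle4 and Fam49b (0.990, 0.987 and 0.984), with Sucla2, Zfp131 and Klhl12 (0.917, 0.870 and 0.865) after centring. For Bdh2 they were Rnf25, Mbtd1 and Clk2 (0.844, 0.825 and 0.796), and Tango6, Epb41l4a and Ints12 (0.953, 0.908 and 0.901), on counts of 10 to 29 per library.

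**Figure D3:**
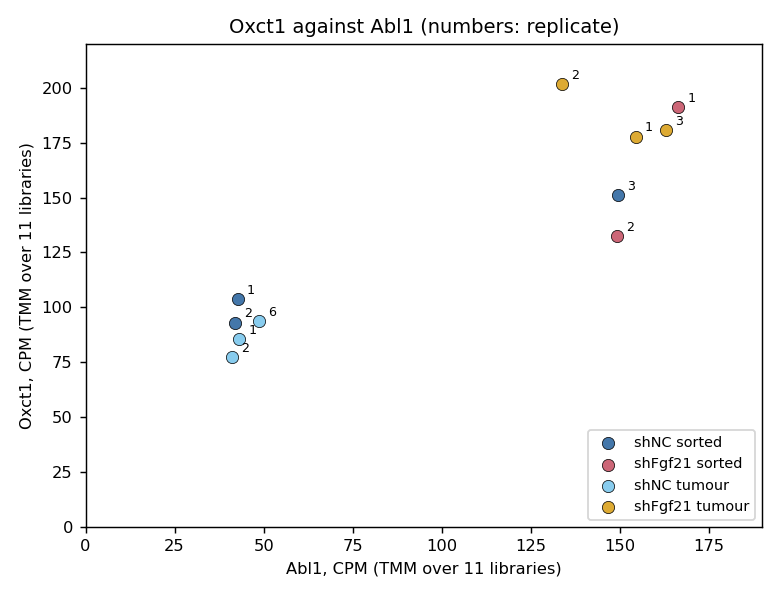
Oxct1 CPM against Abl1 CPM in each of the 11 libraries (linear axes from 0, colour by group, numbers give the replicate). The libraries form a low cluster, with Abl1 at 41.1 to 48.6 CPM, and a high cluster at 134 to 166 CPM that holds all shFgf21 libraries and shNC sorted 3.

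The rest of the pathway was read from 7 lists with 58 further genes: ketone production, other ketone use, transport, sensing and regulation, fatty acid oxidation, branched-chain amino acid breakdown and the succinyl-CoA and citrate steps. In sorted cells, 47 of the 58 passed the filter on low counts, 26 higher and 21 lower in shFgf21, at a median log2 fold change of 0.040 against -0.010 over all genes. In tumours, 46 passed, 21 higher and 25 lower, at a median of -0.016 against -0.0071. None was called in either comparison by edgeR or by DESeq2, and 2 and 1 had an unadjusted p under 0.05. Over all genes tested by edgeR, 1842 of 16454 in sorted libraries and 930 of 14950 in tumours had such a p. For the difference between the effects, given next, 826 of 17327 genes had one. In the test of the difference between the effects, 0 of 47 were called by edgeR or DESeq2, with 2 at an unadjusted p under 0.05, Acads (-0.69 ± 0.27, SE) and Bckdha (0.45 ± 0.19), followed by Echs1 (0.32 ± 0.16; edgeR adjusted p = 1 for each).

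Among other genes of ketone use, Aacs, the cytosolic synthetase that feeds acetoacetate into lipid synthesis, was at 54.2, 60.8 and 49.0 CPM in shNC and 65.7 and 74.6 CPM in shFgf21 sorted libraries. In tumours it was at 61.0, 79.8 and 85.6 CPM in shNC and 86.7, 90.7 and 95.1 CPM in shFgf21. The groups did not overlap in either kind of sample, which held for 29.8% of all genes tested in sorted libraries and 11.8% in tumours. The log2 fold changes of 0.34 ± 0.13 and 0.26 ± 0.15 (SE) did not pass (edgeR adjusted p = 0.390 and 0.868). Acat2, the cytosolic thiolase of sterol synthesis, was at -0.12 ± 0.19 and 0.45 ± 0.25 (edgeR adjusted p = 0.848 and 0.857). Oxct2a, the testis form of the transferase, had 5 counts in shNC sorted 1 and 0 in the other 10 libraries, and Oxct2b had 0 counts in all 11.

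Auh, an enoyl-CoA hydratase of leucine breakdown, was lower with the Fgf21 hairpin in both kinds of sample without passing. It was at 31.1, 27.7 and 27.8 CPM in shNC and 23.8 and 23.3 CPM in shFgf21 sorted libraries (-0.31 ± 0.12, SE, edgeR adjusted p = 0.397). It was at 19.7, 22.7 and 21.4 CPM in shNC and 15.8, 15.7 and 15.9 CPM in shFgf21 tumours (-0.44 ± 0.15, edgeR adjusted p = 0.670). The groups did not overlap in either, to set beside 29.8% of all genes tested in sorted libraries and 11.8% in tumours. Auh was named for its small p. The other listed genes of smallest p did not pass either: Acads, the short-chain acyl-CoA dehydrogenase, at -0.38 ± 0.17 in sorted cells (edgeR adjusted p = 0.461), and in tumours Bckdha, a branched-chain ketoacid dehydrogenase subunit, at -0.31 ± 0.15 and Slc25a20, the carnitine carrier, at 0.30 ± 0.15 (edgeR adjusted p = 0.820 and 0.841).

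**Figure D4:**
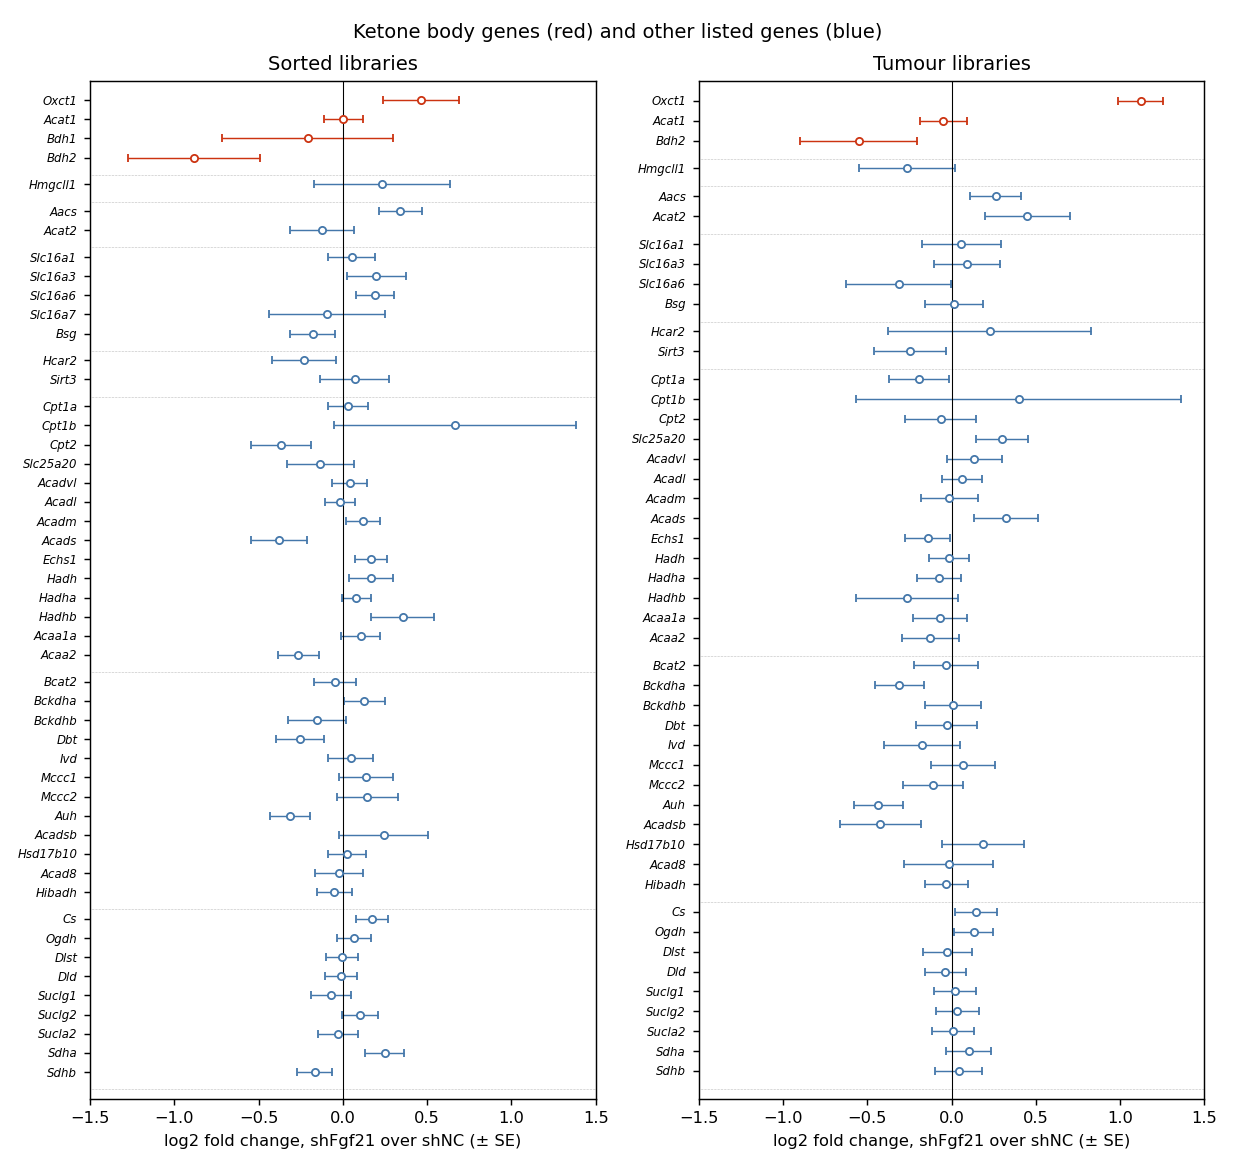
Fitted log2 fold change, shFgf21 over shNC, in sorted and tumour libraries for ketone body genes (red) and other listed genes past the filter (blue). Blue points are grouped by list in the order of the text, and bars are ± SE. All points are open. No blue point and no red point in sorted libraries was called, and no p-value is used for red points in tumours. In tumours Oxct1 lies at 1.12 and the other listed genes at -0.44 to 0.45. The Oxct1 difference was known when the members were chosen, so nothing is read from this gap.

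Between the kinds of sample, Slc16a7 passed the filter on low counts only through the sorted libraries and was left out of the counts that follow. The calls included 2 of 4 further transport genes, 1 of 2 sensing and regulation genes and 4 of 14 fatty acid oxidation genes. Of 46 listed genes tested in the shNC comparison, 11 were called, 8 higher and 3 lower in sorted cells, which is 23.9% against 31.0% of all genes (edgeR). Without shNC sorted 3, 6 were called. Calls over all genes fell too, from 4995 of 16104 to 3582 of 16498 without that library. Hcar2, the beta-hydroxybutyrate receptor of myeloid cells and adipocytes, was at 121 ± 27.9 CPM in shNC sorted and 2.20 ± 2.10 CPM in shNC tumours (log2 difference 5.85 ± 0.57, SE, edgeR adjusted p = 1.46e-04). The monocarboxylate transporter gene Slc16a6 was at 41.0 ± 1.60 and 3.99 ± 0.408 CPM (3.36 ± 0.15, edgeR adjusted p = 2.04e-06). Slc16a3, which encodes the lactate exporter MCT4, was at 1.36 ± 0.20 (edgeR adjusted p = 0.00146).

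Slc16a7, which encodes the transporter MCT2, had 205 counts in shNC sorted libraries against 2 in shNC tumours, a ratio of 115 (95% exact interval 31.5 to 957). This interval pools the libraries and covers counting error only, not the spread among libraries. In shFgf21 it had 123 counts against 0, at least 63.6-fold higher in sorted cells, taking 3 counts over the tumour group as the limit. These counts are a description, and the test of Slc16a7 is not used. Slc16a1, which encodes the main ketone and lactate carrier MCT1, was at 55.3 ± 5.64 CPM in shNC sorted and 89.0 ± 31.2 CPM in shNC tumours and did not pass (-0.68 ± 0.23, edgeR adjusted p = 0.0565). With the Fgf21 hairpin it was at 0.052 ± 0.14 in sorted cells and 0.057 ± 0.24 in tumours, and Hcar2 at -0.23 ± 0.19 and 0.23 ± 0.60 (SE, edgeR adjusted p = 0.921, 0.988, 0.693 and 0.979).

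Of the enzymes called between the kinds of sample, Hmgcll1 was lower in sorted cells at 0.905 ± 0.118 against 1.93 ± 0.0930 CPM (-1.08 ± 0.29, SE, edgeR adjusted p = 0.0250). Suclg2, a subunit of the succinyl-CoA synthetase that works on GTP, was lower in sorted cells at 44.3 ± 1.67 against 76.7 ± 5.38 CPM (-0.79 ± 0.11, edgeR adjusted p = 0.00104). Slc25a20 (0.71 ± 0.14), Acads (0.62 ± 0.18), the peroxisomal thiolase Acaa1a (0.58 ± 0.15) and Auh (0.44 ± 0.13) were higher and Hadh, a mitochondrial hydroxyacyl-CoA dehydrogenase, lower (-0.45 ± 0.13; edgeR adjusted p = 0.00659, 0.0312, 0.0199, 0.0319 and 0.0301). Calls of Hmgcll1, Acads, Acaa1a, Auh and Hadh were lost without shNC sorted 3 and also without shNC tumour 6, and each was lost without at least 1 further library, with adjusted p of at most 0.105, 0.112, 0.0745, 0.117 and 0.117 over all alternatives. Aacs (-0.46 ± 0.16) and Acat2 (-0.29 ± 0.25) did not pass (edgeR adjusted p = 0.0563 and 0.430).

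**Figure D5:**
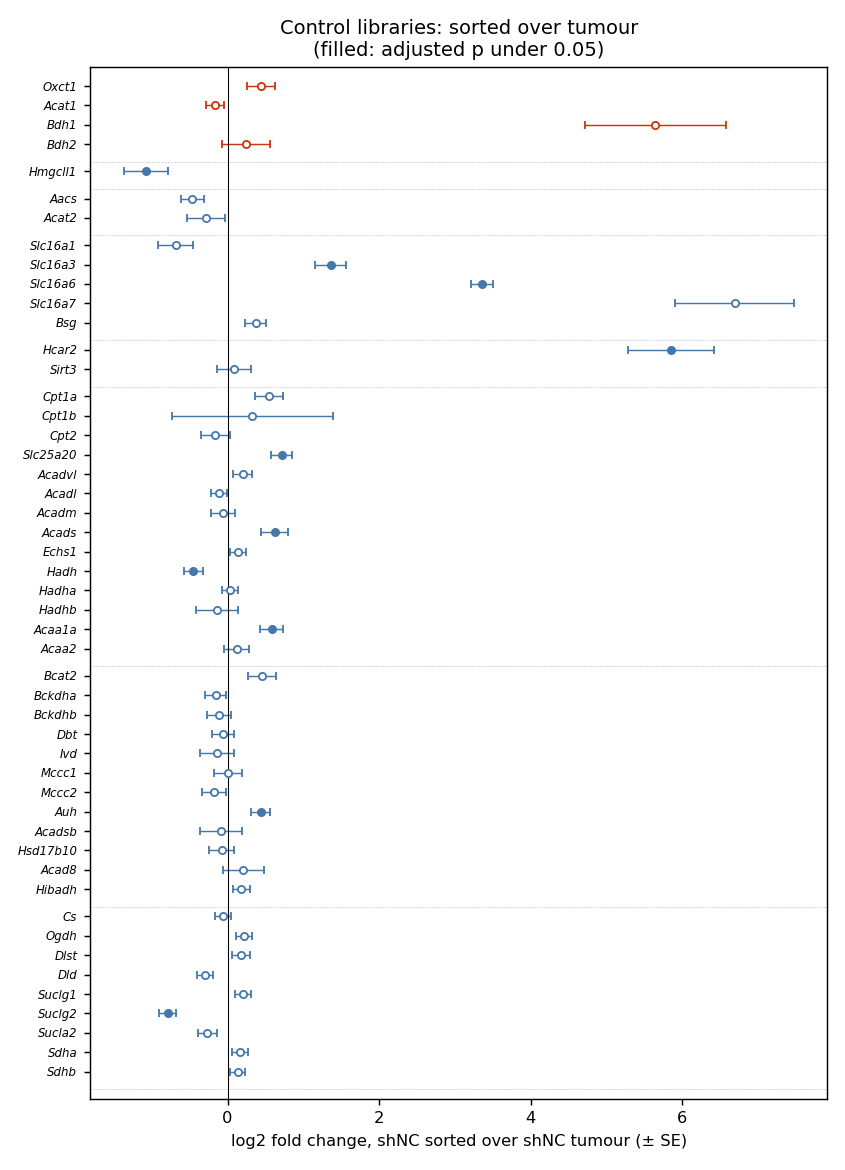
Fitted log2 fold change of the ketone body genes (red) and of other listed genes (blue, grouped by list) between shNC sorted and shNC tumour libraries; bars are ± SE and filled points have an adjusted p under 0.05. Bdh1 and Slc16a7 are drawn open because their tests are not used. They passed the filter only through the sorted libraries and rest on 2 counts each in tumours, so their fitted values depend on the fit. Hcar2 lies at 5.85.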

How the data were processed

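RNA of 11 libraries was sequenced, and the authors deposited raw counts for 55487 genes together with FPKM values of the same libraries. The submitters' processing notes name mm10 as build; the sources used here do not name aligner, counter, annotation or strand. The deposited FPKM equal the count over a fixed gene length and the library total (the implied length differed by at most 8.44e-04% between libraries over 9655 genes), so only counts were tested. Members and gene lists were chosen with earlier results of these data known.

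Counts were analysed in R 4.3.3 with edgeR 4.0.16: filterByExpr, TMM scaling and the quasi-likelihood F-test within the groups compared, Benjamini-Hochberg adjustment over all genes tested, threshold 0.05. SE is the log2 fold change over the square root of F. The difference of effects came from 1 fit of all groups. CPM use TMM factors over 11 libraries. The tests were run on simulated counts first. Named beside the members were listed genes past the threshold, or the 3 of smallest p, 9 fixed genes, and the 3 most correlated genes per member; some listed genes are counted but not reported here. Motifs were searched in RefSeq promoters. Alternatives were median-ratio factors, other filters, DESeq2 1.42.0, all groups in 1 fit, each library left out, and the title number as a block. All pairs of libraries differed by more than sampling noise (chi-square per gene of at least 13.4).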

Additional observations from a re-analysis of the deposited data

How the results depend on the processing

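No member changed its side of the threshold under any alternative run in sorted cells, nor did Oxct1, Acat1 and Bdh2 between the kinds of sample; Bdh1 and Bdh2 had no value at a mean of at least 5 CPM. In tumours the log2 fold change of Oxct1 was 1.06 to 1.21 and that of Bdh2 -0.66 to -0.41. In sorted cells Acat1, near 0, turned to -0.014 with a minimum mean of 5 CPM and was -0.14 to 0.14 without 1 library, and Bdh1 was -0.60 to 0.13. The difference between the effects was -0.94 to -0.41 for Oxct1, -0.097 to 0.20 for Acat1 and -2.03 to 2.34 for Bdh1 without 1 library, Bdh1 having 3 counts in all tumours.

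Counts of called genes over the whole table moved more. In sorted cells 13 genes were called, against 1 with no filter, 232 with DESeq2, 1 with all 4 groups in one fit and 0 to 34 without 1 library (34 and 28 without shNC sorted 3 and 1, 1 and 0 without shFgf21 sorted 1 and 2, where the lone library left is assumed to vary like the controls). In tumours 5 were called, against 1 at a mean of at least 5 CPM, 115 with DESeq2, 26 with all 4 groups in one fit and 0 to 8 without 1 library (8 without shNC 1, 3 and 2 without shFgf21 1 and 2, 0 without shNC 6 or shFgf21 3). For the difference between the effects 1 was called, against 4 with no filter, 0 at a mean of at least 5 CPM, 32 with DESeq2 and 0 to 4 without 1 library. The cause was not tested. With the title number as a replicate block in tumours 131 genes were called and Oxct1 was at 1.21. Only numbers 1 and 2 occur under both hairpins, and deviations from the group means correlated at 0.17 and -0.15 between libraries of the same number, so the numbers were not taken as pairs. Bdh1 and Bdh2 are limited by depth, at 0 to 46 and 10 to 29 counts per library.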
